A study of Mus musculus with 80 samples.

Results

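Kidney cortex taken 1 h after injection of 105 kBq of the α-emitter 211At was compared with kidney cortex of control mice. The samples were chosen by their labels: 2 arrays of exposed mice and 3 arrays of control mice, which are 5 of the 80 arrays of the series and 5 of the 16 arrays of kidney cortex. All mice were adult female BALB/c nude animals (CAnN.Cg-Foxn1nu), a strain without a functional thymus. The exposed mice received 211At in physiological saline through the tail vein and were killed 1 h later. The control mice were mock-treated with phosphate-buffered saline and killed at 24 h. Radionuclide, vehicle and the interval from handling to killing thus differ together between the groups and cannot be told apart, and the sources used here do not state the clock time of killing. The same cortex set holds mice given 1.7 kBq and killed at 1 h, 6 h or 7 days (n = 3 each) and 7.5 kBq killed at 6 h (n = 2). Kidney medulla of mice given 105 kBq (n = 2) and of controls (n = 3) was used for 1 comparison between tissues. By the methods it was dissected from the same kidneys as the cortex, and the labels do not state which arrays pair.

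The kidney cortex consists mainly of proximal tubules, which reabsorb filtered solutes and make glucose, with glomeruli and distal nephron segments between them. Tubule cells respond to adrenal glucocorticoids, hormones released under stress and in a daily rhythm that act through the glucocorticoid receptor on genes such as Sgk1, Tsc22d3, Fkbp5 and Per1. Period genes belong to the repressor arm of the circadian clock, and several of them react within an hour to hormones and other stimuli. Ionising radiation is known for a different early response, in which DNA double-strand breaks activate p53 and its targets. Genes of these systems, of protein folding and of kidney cell types were described as lists.

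The 5 arrays were alike over all transcripts, with correlations of log2 signal between 0.977 and 0.989 for any pair of them. Proximal tubule markers were present in every array, at a summed signal of 99138 to 109642 after exposure and of 91697 to 99842 in controls over 15 kept genes of 20. The medulla controls had 89016 to 100739 for the same genes, so the ranges of cortex and medulla overlapped. None of 16 cell type lists had a called gene, beside 0.217% of all genes. At that share, lists this short without a call cannot show a lack of change. Red cell markers summed to 10426 to 17862 after exposure and 8399 to 13190 in controls, and adipose markers to 2070 to 2818 and 796 to 6754. Adrenal markers summed to 37 to 56 and 69 to 580, and hepatocyte markers to 1042 to 1316 and 1509 to 1688. Exocrine pancreas markers summed to 1262 to 1372 and 1527 to 1758. In the adrenal, hepatocyte and pancreas lists the exposed range lay below the control range, and in the remaining cell type lists the ranges overlapped. Their part in the results was not tested. In bulk tissue, fewer cells of a type and less RNA per cell cannot be told apart.

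Most of the transcripts called after 105 kBq were higher than in control, whereas over all transcripts above background 7735 had values above and 8607 below control. Of 16342 transcripts above background, 33 were called, that is, they had a Benjamini-Hochberg adjusted p under 0.01 in the limma fit and changed at least 1.5-fold (0.202% of those tested). Of them 30 rose (0.184%) and 3 fell (0.0184%). The 33 probes stand for 26 named genes, of which 23 rose, and for 1 probe without a gene symbol. Tsc22d3, Noct, Fkbp5, Sgk1 and Per2 had the highest rises, followed by Polr3e, Per1, Ccn2, Acnat2 and Herpud1. Glo1, Mrnip and Itgb6 fell. In all 33 probes, both exposed arrays lay outside the range of the 3 controls, which was also so for 12.3% of all transcripts in the upward and 16.4% in the downward direction. At an unadjusted p under 0.05 there were 2090 transcripts, 12.8% of those tested. The number of calls rested on the shared spread of 16 arrays and on exposed replicate 2. With the 5 arrays alone, no transcript was called (1718 at an unadjusted p under 0.05, lowest adjusted p 0.0246), and without exposed replicate 2 there were 2 calls, Per2 and Fabp6. All 33 probes kept their direction in every alternative. Leaving out 1 array could not have turned them, because both exposed arrays lay outside the control range in each. The kept direction is thus no measure of how stable the calls are.

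**Figure D1:**
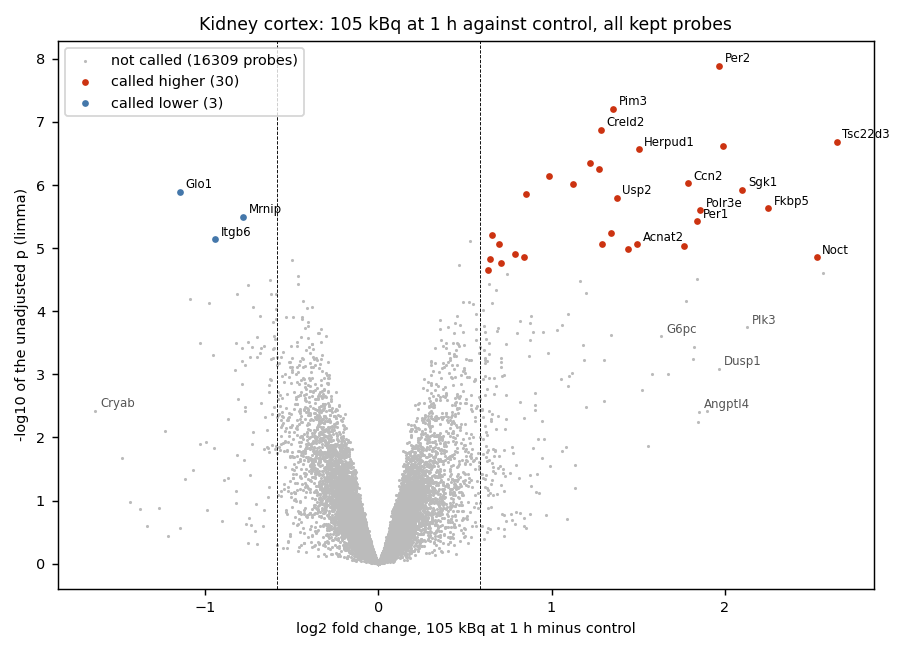
Each point is 1 of the 16342 transcripts above background, with the log2 fold change of 105 kBq at 1 h against control on the horizontal axis and −log10 of the unadjusted limma p on the vertical axis. The 30 transcripts called higher (red) reach a log2 fold change of 2.64 for Tsc22d3, the 3 called lower (blue) end at −1.14 for Glo1, and dashed lines mark a 1.5-fold change. Grey names mark genes that were not called.

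The most strongly raised gene was Tsc22d3, which encodes the glucocorticoid-induced leucine zipper, a mediator of the anti-inflammatory action of these hormones. Its log2 signal was 11.58 and 12.61 in the exposed arrays and 9.64, 9.49 and 9.23 in the controls. Both exposed arrays were above every control, and exposed replicate 2 was the higher of the pair. The log2 fold change was 2.64 ± 0.27 (SE), a 6.25-fold rise (adjusted p = 0.000744). A further probe of the gene, with a lower signal, gave 1.341 ± 0.184 (adjusted p = 0.00477).

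Fkbp5, a co-chaperone that lowers the affinity of the glucocorticoid receptor for its hormone, had 9.37 and 10.42 after exposure against 7.67, 7.64 and 7.63 in controls. The controls lay close together while the exposed arrays were apart by more than 1 log2 unit, and the rise was 4.76-fold (log2 fold change 2.25 ± 0.28, adjusted p = 0.00238). Sgk1, a kinase that raises sodium uptake through the epithelial sodium channel and is a classical target of corticosteroids, had 12.68 and 13.27 against 10.61, 11.07 and 10.94. Its exposed arrays were both above all controls by over 1 log2 unit, and it rose 4.29-fold (2.10 ± 0.25, adjusted p = 0.00161). Pim3, a serine/threonine kinase of cell survival, had 12.67 and 12.87 against 11.23, 11.56 and 11.46, with little spread within either group. Its log2 fold change was 1.36 ± 0.13 (adjusted p = 0.000504).

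Glucocorticoid induced genes as a list had 29 members above background of 33. Of these, 5 were called higher and none lower: Pim3, Tsc22d3, Sgk1, Fkbp5 and Per1. The median log2 fold change of the 29 was 0.63, beside −0.01 for all 11071 genes kept, where 0.217% were called, 0.199% higher and 0.0181% lower. In 15 of the 29 (51.7%), both exposed arrays lay above all controls, against 12.2% of all genes. This list and the others were chosen with earlier results of these data known. The contrast with all genes thus describes the lists and is not a test. Without exposed replicate 1 the list's median was 0.95 and without exposed replicate 2 it was 0.43. The receptor itself, Nr3c1, had 7.53 and 7.29 after exposure and 7.52, 7.41 and 7.46 in controls, so the groups overlapped (log2 fold change −0.05 ± 0.12, adjusted p = 0.923).

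Other glucocorticoid responsive genes had large changes that did not pass the threshold. G6pc, the last enzyme of glucose production, had 12.40 and 13.37 against 11.10, 11.56 and 11.09 (log2 fold change 1.63 ± 0.33, adjusted p = 0.0391). Dusp1, a phosphatase that switches off MAP kinases, had 11.52 and 12.26 against 9.42, 9.995 and 10.37 (1.97 ± 0.46, adjusted p = 0.0603). Both exposed arrays were above all controls in both genes, and the spread within groups was wide. Angptl4, a secreted inhibitor of lipoprotein lipase that fasting also raises, had 10.08 and 11.56 against 9.44, 9.42 and 8.06 (1.85 ± 0.53, adjusted p = 0.132), with exposed replicate 1 close to the upper controls.

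Of the gluconeogenesis and amino acid breakdown genes, none of 18 was called, beside 0.217% of all genes. Values were above control in 13 and below in 5, with a median of 0.23. In 7 of the 18 (38.9%) both exposed arrays were above all controls, beside 12.2% of all genes. Pck1, which makes phosphoenolpyruvate, had 11.11 and 12.49 against 11.04, 9.32 and 9.49 (1.85 ± 0.56, adjusted p = 0.15), and Glul, which makes glutamine, had 10.22 and 10.91 against 9.95, 8.29 and 8.43 (1.67 ± 0.40, adjusted p = 0.0665). In Pck1, Glul and Slc37a4, the glucose 6-phosphate transporter, control replicate 1 stood well above the other controls and nearly reached exposed replicate 1.

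Promoter sequences of the called genes were read from RefSeq windows that run from 250 bases before to 50 bases after a transcription start (build GRCm38.p6). Of the 26 named genes, 23 had such a window. The full palindrome of the glucocorticoid response element, AGAACA and TGTTCT with 3 bases between them, was searched for on both strands and stood in the windows of 2 called genes, Sgk1 and Acnat2. Over the whole table only 3 of 27025 genes held it (0.0111%), the other one being Gm35041. The endoplasmic reticulum stress response element is CCAAT and CCACG with 9 bases between them. It stood in the windows of Creld2 and Acnat2 and in 0.137% of all genes. The E-box CACGTG is the site of clock and other basic helix-loop-helix factors. It stood in those of Sgk1, Per1, Fkbp5, Polr3e and Coq10b (21.7% of the 23, 8.09% of all genes). The cyclic AMP response element TGACGTCA stood in those of Osbpl9 and Tra2a (8.7% and 2.03%), and its core TGACG, which the full element contains, in those of 13 of the 23 genes (56.5%, against 23.0% of all). These are matches of letters in a short window, and binding was not measured. The 23 genes had 37 windows and the 27025 genes 32851, so a called gene had more windows in which to match. All genes with a window were counted, not only those above background in cortex. The shares are thus not like for like. The 4 windows below show where the elements lie in genes described here, with every match to the first 4 motifs in capitals. In Sgk1 (chr10:21993640-21993939, plus strand) these are the E-box and the glucocorticoid element, which starts 189 bases before the start. In Acnat2 (chr4:49408102-49408401, minus strand) they are the glucocorticoid element and, right after it, the endoplasmic reticulum stress response element. In Per1 (chr11:69098699-69098998, plus strand) it is the E-box. In Creld2 (chr15:88819396-88819695, plus strand) it is the endoplasmic reticulum stress response element on the opposite strand.
Sgk1: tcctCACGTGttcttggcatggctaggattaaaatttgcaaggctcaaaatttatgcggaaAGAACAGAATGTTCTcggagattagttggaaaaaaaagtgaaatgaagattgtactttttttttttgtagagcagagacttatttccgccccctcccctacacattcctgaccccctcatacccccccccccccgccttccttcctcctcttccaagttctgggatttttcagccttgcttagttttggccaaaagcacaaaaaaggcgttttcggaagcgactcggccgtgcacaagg
Acnat2: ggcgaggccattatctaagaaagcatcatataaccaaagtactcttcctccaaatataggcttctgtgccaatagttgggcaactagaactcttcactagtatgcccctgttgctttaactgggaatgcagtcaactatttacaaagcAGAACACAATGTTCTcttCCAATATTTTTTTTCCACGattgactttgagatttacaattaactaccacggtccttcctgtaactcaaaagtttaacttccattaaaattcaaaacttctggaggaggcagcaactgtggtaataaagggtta
Per1: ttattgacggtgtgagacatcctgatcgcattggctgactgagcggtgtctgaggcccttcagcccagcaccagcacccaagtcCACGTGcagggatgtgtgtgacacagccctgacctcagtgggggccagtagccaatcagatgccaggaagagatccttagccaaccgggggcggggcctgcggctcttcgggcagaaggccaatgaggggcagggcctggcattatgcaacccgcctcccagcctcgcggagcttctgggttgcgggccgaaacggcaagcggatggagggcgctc
Creld2: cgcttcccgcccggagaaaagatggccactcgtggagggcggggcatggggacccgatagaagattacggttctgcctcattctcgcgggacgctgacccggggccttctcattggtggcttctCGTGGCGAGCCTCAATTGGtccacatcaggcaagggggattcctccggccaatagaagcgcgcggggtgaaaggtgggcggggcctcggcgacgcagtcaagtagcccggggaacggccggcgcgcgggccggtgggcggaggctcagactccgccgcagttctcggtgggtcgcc

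Acnat2 itself, a peroxisomal enzyme that joins fatty acids to amino acids, rose on both of its probes. Its log2 signal was 9.69 and 10.32 against 8.32, 8.45 and 8.75 on the probe with less spread, and no exposed array reached the control range. The log2 fold changes of the 2 probes were 1.495 ± 0.214 (adjusted p = 0.00545) and 1.76 ± 0.25 (adjusted p = 0.0057). Acnat2 has a close relative, Acnat1, and how far the probes tell them apart was not tested.

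In the negative limb of the clock, Per2, Per1 and Bhlhe40 rose, while 5 further genes kept were not called. Per2, a core repressor of the clock, had 10.46 and 10.87 after exposure and 8.74, 8.68 and 8.68 in controls. It was the transcript with the lowest adjusted p, with nearly equal controls, and rose 3.91-fold (log2 fold change 1.97 ± 0.16, adjusted p = 0.000209). A second probe gave 1.99 ± 0.21 (adjusted p = 0.000744), while another lay at background in every array (6.82 and 6.82 against 6.80, 6.88 and 6.87). Per1, its partner, had 10.18 and 9.73 against 7.88, 8.32 and 8.14 and rose 3.58-fold (1.84 ± 0.24, adjusted p = 0.00322). On this probe exposed replicate 1 was the higher, unlike in most called genes. The other Per1 probe had nearly equal exposed values of 8.29 and 8.32 against 6.97, 7.29 and 7.17. It missed the threshold with 1.17 ± 0.19 (adjusted p = 0.0127). Bhlhe40, a repressor of Per transcription, had nearly equal exposed values of 11.31 and 11.30 against 10.68, 10.66 and 10.60, a rise of 0.66 ± 0.09 (adjusted p = 0.00488).

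Of the 8 genes of the negative limb, 3 were thus called higher and none lower, beside 0.199% of all genes called higher. In 6 (75%) both exposed arrays were above all controls, beside 12.2% of all genes. In 1, Nr1d1, both were below, beside 17.8% of all genes. Nr1d1, a repressor of Arntl, had 7.93 and 7.45 against 8.04, 8.40 and 8.26 (−0.54 ± 0.18, adjusted p = 0.211), and its other probe −0.36 (adjusted p = 0.141). Ciart, a further repressor, had 8.23 and 7.69 against 7.21, 7.10 and 6.90 (0.89 ± 0.18, adjusted p = 0.0366). Of 3 clock activators none was called. Arntl and Clock had log2 fold changes of −0.30 (adjusted p = 0.414) and −0.18 (adjusted p = 0.485), and Rora, an activator of Arntl transcription, had 0.87 ± 0.17 (adjusted p = 0.0318).

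Among 9 clock output genes 3 were called higher, Noct, Usp2 and Tsc22d3, beside 0.199% of all genes. Tsc22d3 is also counted among the glucocorticoid induced genes, so the counts of the lists are not separate. Noct, a rhythmic nucleotide phosphatase long described as a deadenylase, had 9.72 and 11.59 against 8.196, 8.17 and 8.01. The exposed arrays differed from each other by 1.87 log2 units, the widest gap among the called genes, and the log2 fold change was 2.53 ± 0.38 (adjusted p = 0.00735). A second Noct probe missed the threshold with 2.56 (adjusted p = 0.0109). Usp2, a deubiquitinase that acts on clock proteins and on the epithelial sodium channel, had 10.69 and 11.31 against 9.55, 9.85 and 9.47 (1.38 ± 0.17, adjusted p = 0.00174), and 2 further probes had 0.74 (adjusted p = 0.011) and 0.54 (adjusted p = 0.0525). Dbp, the output gene with the strongest daily rhythm in many tissues, had 11.77 and 10.63 against 11.54, 11.63 and 10.97, and the groups overlapped (−0.18 ± 0.28, adjusted p = 0.861).

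**Figure D2:**
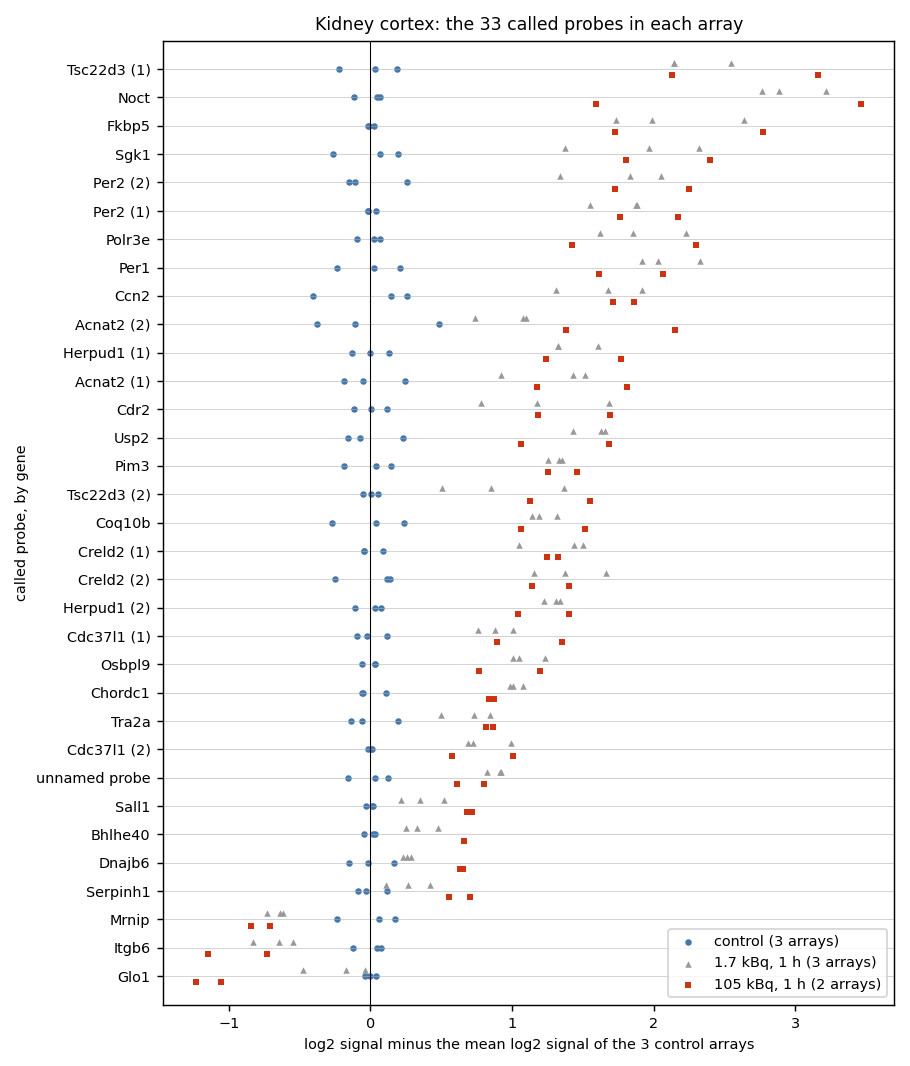
Each row is 1 of the 33 called probes, with numbers in brackets for genes with several called probes, and each point is 1 array, placed by its log2 signal minus the mean of the 3 control arrays. Circles are controls, squares 105 kBq at 1 h and triangles 1.7 kBq at 1 h. Squares never reach the circles. Both squares lie outside the range of the triangles in 8 of the 33 probes, with the widest difference in Glo1 (−0.91). Over all transcripts both lie above that range in 12.2% and below it in 16.6%.

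Herpud1 and Creld2, genes of the endoplasmic reticulum stress response, rose as well. Herpud1, which takes part in the removal of misfolded proteins from this compartment, had 12.92 and 13.45 against 11.55, 11.82 and 11.68 and rose 2.84-fold (log2 fold change 1.504 ± 0.157, adjusted p = 0.000744), and its second probe gave 1.22 ± 0.13 (adjusted p = 0.00103). Creld2, a secretory pathway protein induced under the same stress, had 9.52 and 9.59 against 8.35, 8.22 and 8.22 (1.29 ± 0.13, adjusted p = 0.000719), with 1.27 ± 0.14 on its second probe (adjusted p = 0.00113). In both genes the gap between the groups was far wider than the spread within them. Of 19 list members, 2 were called higher and none lower, beside 0.199% of all genes called higher. Values were above control in 18, with a median of 0.23. In 13 (68.4%) both exposed arrays lay above all controls, beside 12.2% of all genes. Atf4, a transcription factor of this response, had 8.39 and 8.28 against 7.74, 7.70 and 7.64 (0.64 ± 0.11, adjusted p = 0.0139). Xbp1, another such factor, had 11.54 and 11.48 against 10.73, 10.93 and 11.17 (0.56 ± 0.14, adjusted p = 0.0726).

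Among the called genes were also several chaperones and co-chaperones, Chordc1, Cdc37l1, Dnajb6 and Serpinh1, of which Chordc1 alone stood in the list of cytosolic heat shock genes and was called there. Chordc1, a partner of the chaperone Hsp90, had 10.20 and 10.17 against 9.44, 9.27 and 9.28 (0.86 ± 0.10, adjusted p = 0.00161). Cdc37l1, which also binds this chaperone, had 8.80 and 9.26 against 8.03, 7.81 and 7.88 (1.12 ± 0.13, adjusted p = 0.00144), was called on a second probe with 0.79 ± 0.12 (adjusted p = 0.00688), and had 0.64 (adjusted p = 0.0499) and 0.40 (adjusted p = 0.269) on its other probes. Exposed replicate 2 was the higher in the second of these genes only. Dnajb6, a J-domain co-chaperone, had 8.87 and 8.90 against 8.41, 8.10 and 8.23 (0.64 ± 0.10, adjusted p = 0.0076) and 0.34 (adjusted p = 0.397) on its other probe. Serpinh1, the collagen chaperone, was the call nearest the threshold, with 8.59 and 8.44 against 8.004, 7.79 and 7.85 (0.63 ± 0.10, adjusted p = 0.0099).

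Of 29 heat shock and chaperone genes, 1 was called higher, Chordc1, beside 0.199% of all genes. Values were above control in 24, with a median of 0.31. In 12 (41.4%) both exposed arrays lay above all controls, beside 12.2% of all genes. Without exposed replicate 1 the median was 0.44. Dnajb1 passed the p threshold at less than 1.5-fold (0.53 ± 0.07, adjusted p = 0.00542), and Hsph1 had 1.03 ± 0.20 (adjusted p = 0.0355). Cryab, a small heat shock protein, ran the other way, with 8.35 and 7.76 against 9.86, 9.85 and 9.36 (−1.63 ± 0.47, adjusted p = 0.131). Cirbp, an RNA-binding protein induced by mild cold, was also lower in both exposed arrays, with 7.44 and 7.23 against 8.004, 8.54 and 8.55 (−1.03 ± 0.21, adjusted p = 0.0435).

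The remaining called genes that rose had varied roles. Polr3e, a subunit of RNA polymerase III, had 10.05 and 10.93 against 8.54, 8.70 and 8.66, a 3.63-fold rise (1.86 ± 0.24, adjusted p = 0.00243), and a weaker probe had 0.96 (adjusted p = 0.206). It was the only called gene among 13 genes of this polymerase and its factors, beside 0.217% of all genes. Their median was 0.03, and the next, Polr3a, had 0.16 (adjusted p = 0.41). Ccn2, the connective tissue growth factor, had 12.12 and 11.97 against 9.85, 10.51 and 10.41 (1.79 ± 0.21, adjusted p = 0.00144). Both genes were well separated from control, although control replicate 1 of Ccn2 stood below the other controls.

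Coq10b, a mitochondrial coenzyme Q binding protein, had 10.92 and 10.47 against 9.64, 9.44 and 9.13 (1.29 ± 0.18, adjusted p = 0.00545). A second probe of it had 1.30 (adjusted p = 0.0525), and another lay at background. Osbpl9, a lipid transfer protein, had 12.32 and 12.75 against 11.49, 11.58 and 11.58 (0.98 ± 0.11, adjusted p = 0.00128). In both genes no exposed array came near the controls. Cdr2, a cytoplasmic antigen known from paraneoplastic cerebellar degeneration, rose by 1.44 ± 0.21 (adjusted p = 0.00616), Tra2a, a splicing factor, by 0.84 ± 0.13 (adjusted p = 0.00735), and Sall1, a zinc finger factor of kidney development, by 0.70 ± 0.10 (adjusted p = 0.00545), with 0.36 (adjusted p = 0.155) on its other probe.

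Only 3 genes were called lower. Glo1, which encodes glyoxalase and detoxifies methylglyoxal, had 10.82 and 10.99 after exposure and 12.04, 12.01 and 12.08 in controls. Both groups were tight and lay about 1 log2 unit apart, and the log2 fold change was −1.14 ± 0.14 (adjusted p = 0.00161), a 2.21-fold fall. Of 28 genes of oxidative stress and detoxification, none was called higher and 1, Glo1, lower, with a median of 0.01. Among all genes 0.199% were called higher and 0.0181% lower. At these shares, the absence of further calls cannot show a lack of response. Hagh, the next enzyme of the glyoxalase pathway, had −0.39 (adjusted p = 0.347).

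Mrnip, a protein that binds the MRE11-RAD50-NBN complex at DNA breaks, had 7.66 and 7.79 against 8.27, 8.68 and 8.56 and fell by 0.78 on the log2 scale (SE 0.10, adjusted p = 0.00286). All 5 values lay near the background cutoff of 6.88 log2 units, where a fold change is understated. Itgb6, an epithelial integrin chain that activates transforming growth factor β, had 9.74 and 9.32 against 10.54, 10.35 and 10.51 (−0.94 ± 0.13, adjusted p = 0.00535). Its other probes were lower in both exposed arrays too, at −0.83 (adjusted p = 0.0624) and −0.62 (adjusted p = 0.138).

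In the lists of the DNA damage response, Mrnip was the only called gene. Of 24 p53 targets none was called, beside 0.217% of all genes. At that share, a list of 24 genes without a call cannot show a lack of response. Among them 8 had values above and 16 below control, and the median was −0.05. Plk3, a stress-activated kinase, had 9.07 and 10.43 against 7.48, 7.54 and 7.85 (2.13 ± 0.41, adjusted p = 0.0344), so that it was higher in both exposed arrays without passing the threshold. The death regulator Bbc3 had −0.24 (adjusted p = 0.206) and the stress gene Gadd45a −0.37 (adjusted p = 0.325). Cdkn1a, the cell cycle inhibitor taken as the standard readout of p53, had 7.46 and 9.13 against 7.40, 7.36 and 7.95, and the groups overlapped through exposed replicate 1 (0.73 ± 0.37, adjusted p = 0.439).

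Of 22 genes of double-strand break repair and damage signalling, Mrnip alone was called, beside 0.217% of all genes, and the median was −0.01. In 6 of them both exposed arrays lay below all controls (17.8% did among all genes), among them Rad50 with 7.75 and 7.68 against 8.07, 8.12 and 8.01 (−0.35 ± 0.08, adjusted p = 0.0527) and Mre11a with −0.17 (adjusted p = 0.277), which form the complex that Mrnip binds. No gene was called in the lists of cell cycle and proliferation (20 genes, 16 with values below control, median −0.09), interferon-stimulated genes (25, median −0.04), NF-kappaB and cytokine genes (17, median −0.06) and kidney injury and acute phase (17, median −0.05). Immediate early genes had none of 19 called and a median of 0.04, although Ier3, an early stress gene, had 10.94 and 11.26 against 10.07, 9.93 and 9.70 (1.198 ± 0.204, adjusted p = 0.0176). Sterol and fatty acid synthesis had the lowest median of the lists with 8 or more genes, −0.23 over 21 genes with none called, and without exposed replicate 2 it was −0.05.

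**Figure D3:**
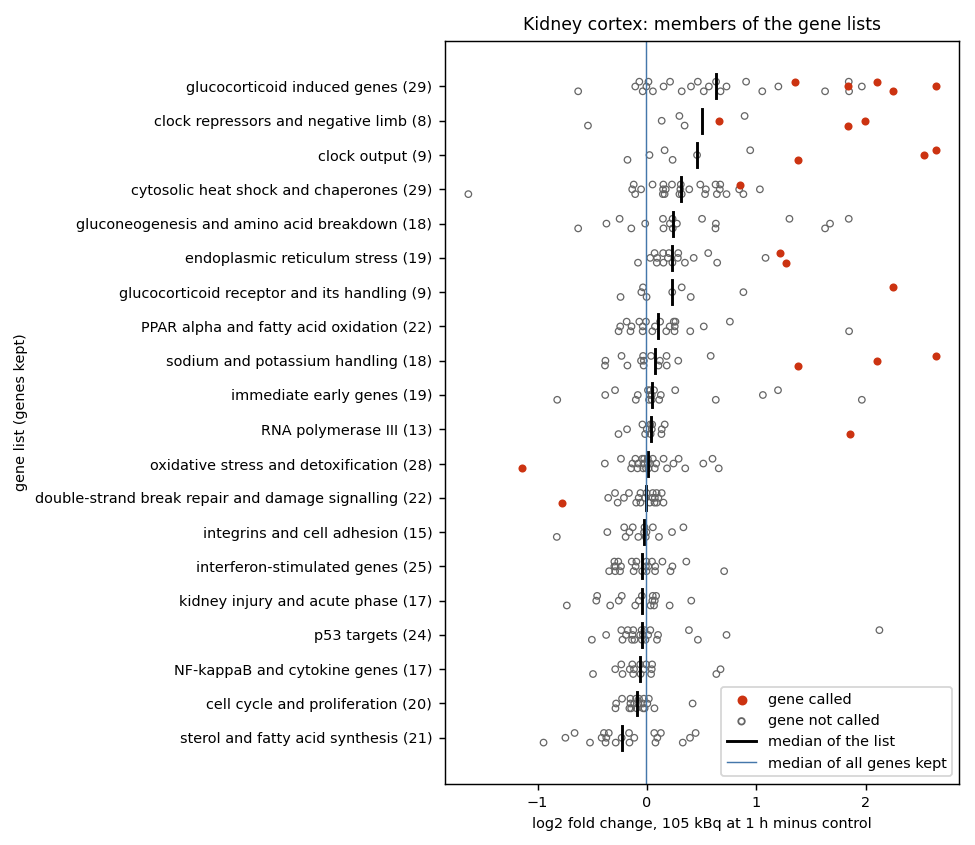
Each circle is 1 gene of a list, placed by its log2 fold change of 105 kBq at 1 h against control, with the number of genes above background in brackets. Red circles are called genes, black bars are medians and the blue line is the median of all genes (−0.01). Medians run from 0.63 for glucocorticoid induced genes to −0.23 for sterol and fatty acid synthesis.

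Sgk1, Tsc22d3 and Usp2 act on the transport of sodium and potassium. These 3 regulators were called higher among the 18 genes of that list, beside 0.199% of all genes. The median of the list was 0.07 and −0.03 without control replicate 3. All of them are also counted above, among the glucocorticoid induced or the clock output genes. The transporters themselves were not called. Slc12a3, the thiazide-sensitive cotransporter, had 12.48 and 12.40 against 12.85, 13.01 and 12.59 (−0.38 ± 0.14, adjusted p = 0.259).

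The dependence on activity was tested directly by comparing 105 with 1.7 kBq at 1 h. No transcript was called (0% of those tested, while 1417, or 8.67%, had an unadjusted p under 0.05, and the lowest adjusted p was 0.0696). The 1.7 kBq mice had Per2 at 10.58, 10.58 and 10.25, Sgk1 at 13.19, 12.25 and 12.84, Tsc22d3 at 12.002, 11.60 and 11.60 and Fkbp5 at 10.28, 9.64 and 9.38. In each of these 4 genes exposed replicate 2 of the 105 kBq mice lay above the highest 1.7 kBq array and replicate 1 below it. For Per2 the difference of 105 minus 1.7 kBq was 0.20 with a 95% interval from −0.15 to 0.54, for Sgk1 0.21 (−0.33 to 0.75), and for Fkbp5 0.13 (−0.48 to 0.74). These intervals leave room for differences of that size.

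Over the 33 called probes the difference between activities ranged from −0.91 to 0.79 with a median of 0.09, and the intervals had a median width of 0.31 to either side. Of the 30 raised probes, 5 (16.7%) had both 105 kBq arrays above all 1.7 kBq arrays and 2 (6.67%) had both below, beside 12.2% and 16.6% of all transcripts. The 5 were Bhlhe40, Dnajb6, Serpinh1, Sall1 and 1 probe of Acnat2, most of them genes with a modest rise. The 2 below were Chordc1 and the probe without a symbol. With 16.7% near the 12.2% of all transcripts, no dependence on activity is read from these members. Bhlhe40 had 11.12, 10.89 and 10.98 after 1.7 kBq (difference 0.31, 0.11 to 0.50, adjusted p = 0.466), Dnajb6 8.50, 8.53 and 8.47 (0.39, 0.18 to 0.60, adjusted p = 0.427) and Serpinh1 7.99, 8.30 and 8.15 (0.37, 0.15 to 0.58, adjusted p = 0.466). Atf4 of the endoplasmic reticulum response had 7.81, 7.61 and 7.93 after 1.7 kBq, overlapping the controls (difference 0.55, 0.33 to 0.78, adjusted p = 0.426).

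Glo1 differed most in this respect. After 1.7 kBq its log2 signal at 1 h was 11.57, 11.87 and 12.01, and both 105 kBq values lay below. The difference was −0.91 with an interval from −1.21 to −0.62, and its adjusted p of 0.0776 did not pass the threshold. In all other cortex groups Glo1 lay between 11.57 and 12.08, so the 105 kBq arrays were the lowest of the 16. Slc12a2, a sodium-potassium-chloride cotransporter, had the lowest adjusted p of the named transcripts, with 9.71 and 9.68 after 105 kBq against 10.38, 10.24 and 10.21 (−0.58, −0.76 to −0.40, adjusted p = 0.0696).

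**Figure D4:**
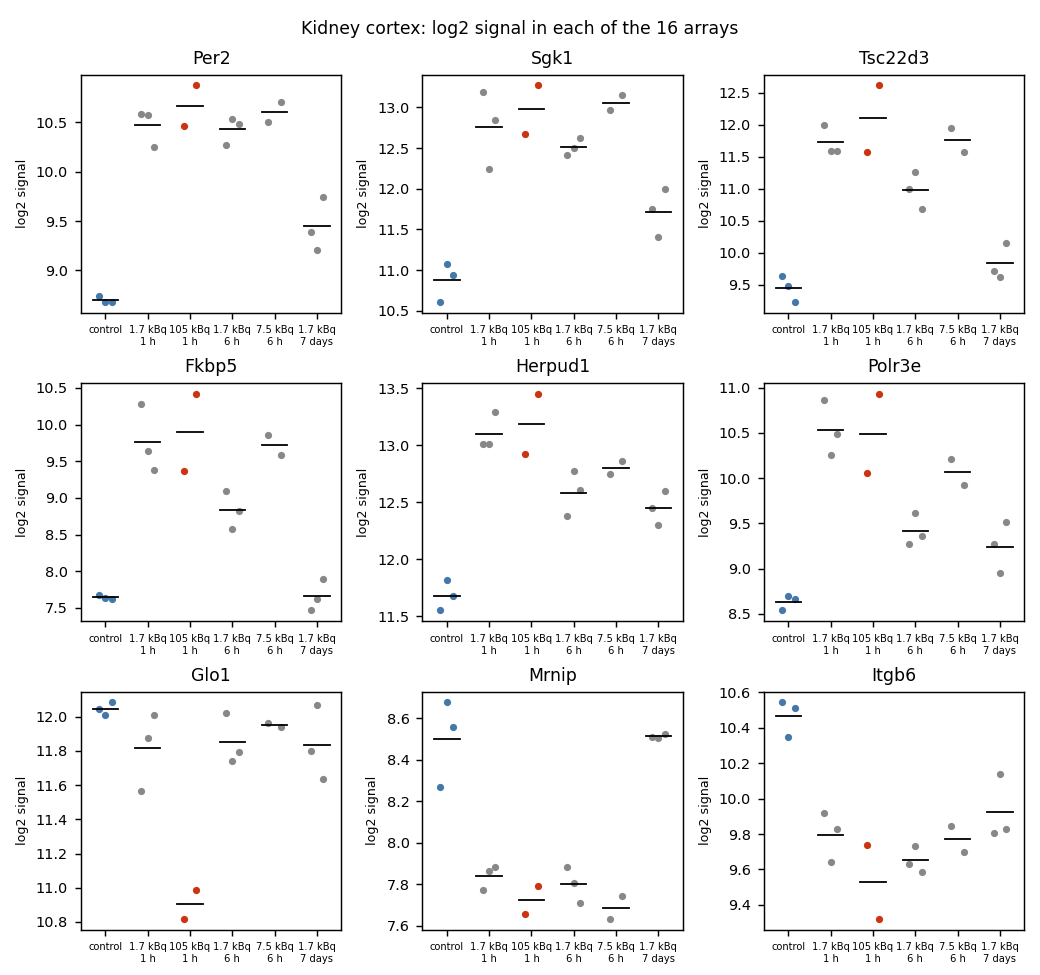
Each panel shows the log2 signal of 1 called gene (its probe with the lowest p) in the 16 cortex arrays, with the mean of each group as a bar. Controls are blue, 105 kBq at 1 h red and the other groups grey. Per2 lies between 10.25 and 10.87 in all groups killed at 1 h or 6 h and between 9.21 and 9.74 at 7 days, Fkbp5 returns to 7.46 to 7.89 at 7 days, and Glo1 is low only after 105 kBq.

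The later groups place these levels in time, although activity and time change together in them. Fkbp5 was at 9.85 and 9.58 after 7.5 kBq and at 9.09, 8.58 and 8.82 after 1.7 kBq at 6 h, and at 7.46, 7.63 and 7.89 at 7 days, where the controls had 7.63 to 7.67. Polr3e was at 10.21 and 9.92, at 9.27, 9.61 and 9.36, and at 9.27, 8.95 and 9.51 in the same groups. Fkbp5 at 7 days thus overlapped the controls, and Polr3e did not. Mrnip was at 7.63 to 7.89 in both 6 h groups and at 8.51, 8.50 and 8.53 at 7 days, inside the control range.

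Whether the response was particular to cortex was tested as the difference of the 105 kBq effect between cortex and medulla in the 10 arrays of those 4 groups. The fit took these arrays as independent, although by the methods cortex and medulla came from the same mice. No transcript of 15517 was called (0%, while 962, or 6.20%, had an unadjusted p under 0.05). Of the 33 probes called in cortex, 32 had an effect of the same sign in medulla, for example 1.85 for Per2, 2.53 for Tsc22d3, 1.69 for Sgk1 and −1.04 for Glo1. In 27 of the 33 the effect was larger in size in cortex, where they had been called. The share of effects with the same sign over all transcripts is not given, so the count of 32 has no background beside it. The probe with the opposite sign was that of Sall1, which also had the lowest adjusted p of this test (0.142). It had 8.68 and 8.64 against 7.93, 7.98 and 7.98 in cortex and 8.38 and 8.34 against 8.52, 8.40 and 8.48 in medulla (−0.11), a difference of effects of 0.80 ± 0.09. The cell cycle inhibitor Cdkn2b followed, with an effect lower in cortex by 1.01 on the log2 scale (−1.01 ± 0.13, adjusted p = 0.183).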

How the data were processed

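RNA of single mice and tissues was hybridised to Illumina MouseRef-8 BeadChips with 25697 probes. The methods state technical triplicates, and 1 column per mouse and tissue was deposited. The deposited intensities were quantified and quantile-normalized by the authors with Illumina and BASE software, on a linear scale without subtraction of background (lowest 88.7, median 120.5, highest 27812). A table of signals before normalization was not used, because no label ties its 80 signal and 80 detection columns to a sample. Array number and signal over background, not depth, limit precision.

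Log2 intensities were fitted in R 4.3.3 with limma 3.58.1 (lmFit, eBayes), with the 6 group means of the 16 cortex arrays, and p-values were adjusted by Benjamini-Hochberg over all kept probes. A probe was kept if at least 2 of 16 arrays exceeded the signal mode (106.3) plus 2.33 SD of the values under it, 117.5. Symbols came from gene numbers of the platform annotation, updated through RefSeq: 23978 probes had 1 symbol and 1719 none. In lists each gene counted through its kept probe with the highest mean signal. Marker lists were summed as signal above the mode. Named were all called genes, the cortex genes that the paper's text names, up to 4 members of each list by adjusted p, and in the other comparisons the 2 transcripts with the smallest adjusted p. Outside this rule Cdkn1a, Cryab, Nr1d1, Nr3c1, Dbp and Hagh were named after their values were seen. Members, lists and tests were chosen with earlier results of these data known. The design text counts mice, so arrays of a group were taken as separate animals. In cortex and medulla, arrays of 1 replicate number had deviations from their group means that correlated at 0.248 to 0.556. The 2 exposed pairs share 1 value (0.273), because 2 arrays deviate from their mean equally and oppositely. Pairs of different numbers were not compared between the tissues. A fit with the mouse as a block was added to the comparison of tissues. Alternatives tried were the arrays in the fit, the filter, background, cyclic loess, median scaling, moderation, threshold, replicate number and leaving out each replicate. The scripts were tested on simulated data.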

Additional observations from a re-analysis of the deposited data

How the results depend on the processing

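With 2 exposed mice, the number of calls depended on the choices made. The 33 called probes kept their direction in all 15 alternatives, but leaving out 1 array could not have turned them. In each of them both exposed arrays lay outside the control range. Against control, 33 transcripts were called (30 higher, 3 lower). There were 0 (0 and 0) when only the 5 arrays were fitted, where the residual spread has fewer degrees of freedom, and 94 (66 and 28) at an adjusted p under 0.05. Leaving out 1 array gave 2 to 33 calls (2 to 29 higher, 0 to 6 lower), with 2 without exposed replicate 2, 15 without control replicate 2 and 13 without control replicate 3. With the replicate number as a block (replicate block) 16 were called (14 higher), all among the 33. Same-numbered cortex arrays did not deviate together (median correlation −0.01 over 36 pairs), so the numbers give no pairing here, and the block changed no call in the other comparisons. A filter on the 5 arrays, background subtraction, cyclic loess, moderation with a trend, a common median (an alternative chosen after seeing the data) and the fit without the 7.5 kBq array with hepatocyte transcripts gave 27 to 36, and no filter 23. No called probe was called in every alternative. Of the listed genes that were not called, 3 changed sign when 1 array was left out: Cyp4b1 ranged from −0.00021 (without exposed replicate 2) to 0.50, and Krt18 from −0.42 to 0.0153 and Rbm3 from −0.17 to 0.38 (both turned without control replicate 1). Against 1.7 kBq, 0 were called in 13 of 14 alternatives, and leave-one-out gave 0 to 4, the 4 being probes of Pdrg1, Prkaa2 and Cwc22 that were lower without 1.7 kBq replicate 2. Between cortex and medulla, 0 were called in 16 of 17, the mouse block included (added after seeing the data), and leave-one-out gave 0 to 2, Reg3b and Reg3g without exposed cortex replicate 2. In all 4 lists with a median above 0.3, it stayed above 0.2 in every leave-one-out.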

Other observations

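Glo1, lower in kidney cortex after 105 kBq, was also lower in the other tissues of the mice given this activity, each fitted by itself in the same way. In the lungs its log2 signal was 10.14 and 10.23 after 105 kBq against 11.68, 12.03 and 11.64 in controls (log2 fold change −1.59 ± 0.16, adjusted p = 0.00157), and in the spleen it was 10.65 and 10.38 against 11.74, 12.18 and 11.74 (−1.37 ± 0.18, adjusted p = 0.0195). In the kidney medulla it was 11.05 and 11.03 against 12.08, 12.18 and 11.99 (−1.04 ± 0.26, adjusted p = 0.247), and in the liver 12.40 and 12.04 against 12.998, 12.998 and 13.01 (−0.78 ± 0.16, adjusted p = 0.014). Both 105 kBq arrays lay below all other 14 arrays of the tissue in the lungs, spleen and both parts of the kidney, and in the liver 1 of them did. Of the 5 tissues, cortex and lungs passed the threshold of 0.01. By the methods 2 mice received 105 kBq and all tissues were taken from each, so these values are not independent of each other. A cause was not tested.

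Exposed replicate 2 lay farther from the controls than exposed replicate 1 in 24 of the 33 called probes, and among those that rose the median gap was 0.42 log2 units. The exceptions among the genes with large rises were Per1, Ccn2 and Coq10b.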
